A study of Homo sapiens with 8 samples.

Results

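Condensin was followed through its 8 subunit genes on all 8 arrays of the series. The members were every probe named NCAPG, NCAPD2 or NCAPH (subunits of condensin I), NCAPG2, NCAPD3 or NCAPH2 (subunits of condensin II), and SMC2 or SMC4 (the ATPase pair that both complexes share). They had 13 probes of 58201 on the array, and the 8 genes were 8 of 43317. The study asked which genes respond to tumour-suppressive miRNAs, and each array compared transfected cells, labelled Cy5, with mock cells of the same line, labelled Cy3 and described as not transfected. PC3, a prostate cancer line, received 1 of 4 miRNAs: miR-150-5p, miR-150-3p, miR-100-3p and miR-99a-3p. FaDu, a squamous carcinoma line of the hypopharynx, received miR-99a-5p or miR-99a-3p. PANC-1, a pancreatic carcinoma line, received si-FOXQ1-1 or si-FOXQ1-2, siRNAs against the transcription factor FOXQ1. Each condition had 1 array and 1 dye orientation, and none of the 8 arrays held a control oligonucleotide, so that transfection and dye cannot be told apart from the miRNA or siRNA on any array. The labels give no dose or time.

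Condensins are ring-shaped protein machines that fold chromatin into mitotic chromosomes. In each complex SMC2 and SMC4 form a V-shaped pair, a kleisin subunit closes the ring (NCAPH in condensin I, NCAPH2 in condensin II), and a pair of HEAT-repeat subunits binds DNA and the kleisin (NCAPG and NCAPD2 in condensin I, NCAPG2 and NCAPD3 in condensin II). Condensin I reaches chromosomes after the nuclear envelope breaks down and compacts them sideways, whereas condensin II is nuclear through interphase and shortens the chromosome axis. Several subunit genes are transcribed with the mitotic programme in late cell cycle phases.

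The transfected miRNAs are short RNAs that guide silencing through their seed. Sequences were taken from RefSeq on GRCh38.p14. They are shown because miR-99a-3p, with the lowest condensin ratios in PC3, and miR-100-3p, with milder ones, have near-identical seeds. The condensin median in PC3 was also mild with miR-150-3p, whose sequence is not shown (-0.55, beside -0.56 with miR-100-3p). The part of the seed was not tested. Capitals mark the seed, bases 2 to 8 from the 5′ end.
miR-99a-3p: cAAGCUCGcuucuaugggucug
miR-100-3p: cAAGCUUGuaucuauagguaug
miR-99a-5p: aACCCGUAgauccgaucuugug
miR-99a-3p lies at chr21:16539138-16539159 on the plus strand, miR-99a-5p at chr21:16539101-16539122 on the plus strand, and miR-100-3p at chr11:122152240-122152261 on the minus strand. The seeds of miR-99a-3p and miR-100-3p were equal at 6 of 7 bases, and the whole sequences at 17 of 22 positions. The seeds of miR-100-3p and miR-99a-5p were equal at 3 of 7 bases. The other transfected miRNAs were miR-150-5p and miR-150-3p.

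All values are processed signals of the scanner software in arbitrary units, or log2 ratios of Cy5 over Cy3. A probe was well above background when the software called it so, and its error is the error the software gives for the spot, which does not include the spread between transfections. Between 44.5% and 49.2% of the gene spots were well above background in Cy3. The slope of the spike-in controls on their expected log ratios was 0.882 to 0.900, so that ratios were compressed. No condensin spot carried an outlier flag. FOXQ1 had a log2 ratio of -2.16 ± 0.29 (spot error) with si-FOXQ1-1 and -2.12 ± 0.28 with si-FOXQ1-2. The mock cells lacked signal where the lines are known to have lost a gene: CTNNA1 was above background in 0 of 4 PC3 channels, and SMAD4 in 0 of 2 FaDu channels. KRT5, KRT14 and TP63 were above background in 2 of 2 FaDu channels and in none of the other lines, and KLK3 in none. CDKN2A, which PANC-1 is known to have lost, was above background in 2 of 2 PANC-1 channels (284 to 299, against 5376 to 24363 in the other lines). Of the leukocyte and endothelial markers, PECAM1 was above background in 4 of 4 PC3 channels (83.1 to 115), and PTPRC, VWF and CD3E, where called, stayed at 46.7 or less. Their part in the condensin values was not tested.

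The mock channels of the miR-99a-3p and miR-100-3p arrays of PC3 agreed within spot noise, as did those of the miR-150-5p and miR-150-3p arrays, the FaDu arrays and the PANC-1 arrays. Over 278 probes printed in several spots, and after a smooth trend with brightness was removed, the median squared difference within these pairs was 1.02 to 1.38 times that expected from the spots, against 22.6 to 26.2 times between the PC3 pairs. The FaDu pair had the highest of these ratios, and its differences had an SD of 0.055 where the spots gave 0.029. The 8 channels were therefore counted as 4 mock samples, 2 of them from PC3. Arrays of a pair were taken to share their control RNA, which the labels do not state.

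With miR-99a-3p in PC3, every measurable condensin subunit was lower than in mock cells. NCAPG, NCAPD2 and NCAPG2 had the lowest ratios, and SMC4, NCAPH2, SMC2 and NCAPD3 followed with ratios near -1. In FaDu the same miRNA went with ratios above 0 for the same 7 genes. With miR-100-3p and miR-150-3p in PC3 the subunits were lower by less, and with miR-150-5p, miR-99a-5p and the FOXQ1 siRNAs the medians lay between -0.11 and 0.29. The study chose NCAPG for follow-up as the most reduced on the array of miR-99a-3p in PC3, among predicted targets linked to disease-free survival. Its value there is thus a description of a selected gene. The paper also reported lower NCAPG mRNA by qRT-PCR, and lower protein, after miR-99a-3p in PC3 and other prostate cancer lines. In PC3 its luciferase reporter with the untranslated NCAPG region gave less signal with miR-99a-3p, but not once the predicted site was deleted. From this the paper concluded that the miRNA regulates NCAPG directly, which the arrays do not test. In bulk cells, fewer dividing cells and less RNA per cell cannot be told apart.

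**Figure D1:**
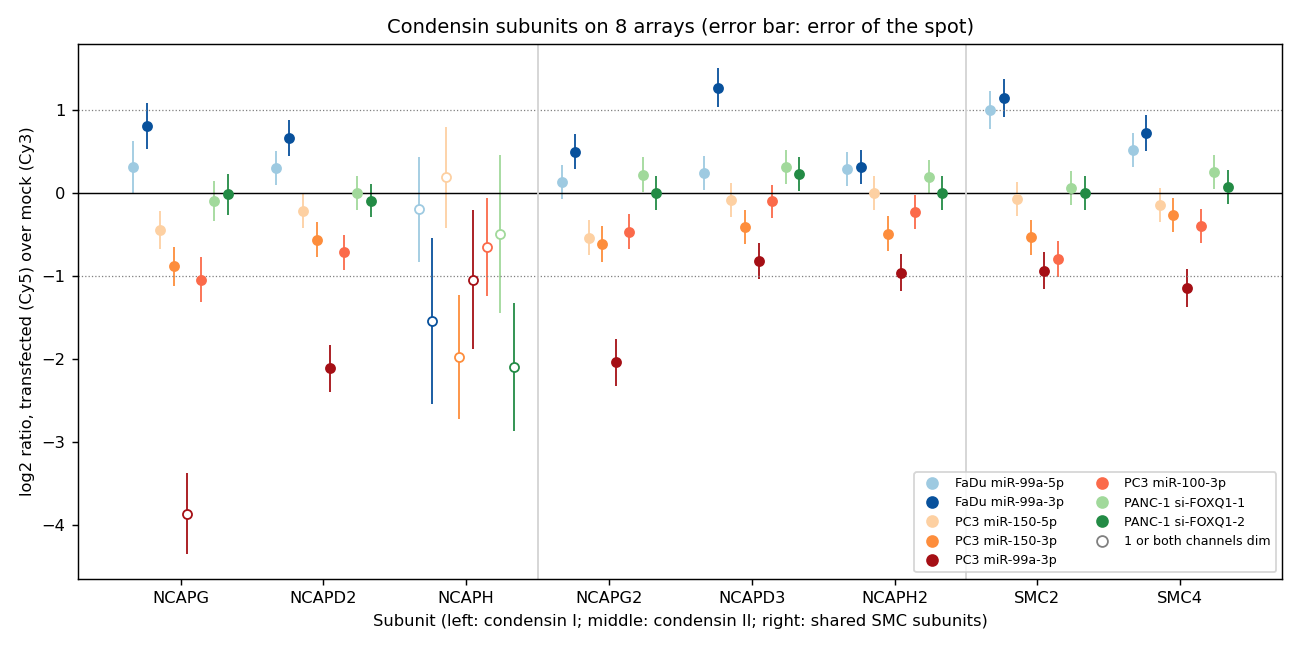
The log2 ratio of Cy5 over Cy3 (vertical axis) is plotted for the brightest probe of each subunit (horizontal axis), with 1 point per array and the error of the spot as bar. Open points mark probes not well above background in 1 or both channels, and dotted lines mark 1 and -1. The dark red points of PC3 with miR-99a-3p are the lowest for all subunits except NCAPH, from -3.87 for NCAPG to -0.82 for NCAPD3, and the dark blue points of FaDu with miR-99a-3p lie above 0 for the other 7 genes.

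NCAPG, a HEAT-repeat subunit of condensin I, was measured by 1 probe (hg19 chr4:17846426-17846485, plus strand). Mock PC3 gave a signal of 211, and PC3 with miR-99a-3p gave 14.5, which was not well above background. Its ratio of -3.87 ± 0.49 is thus no measured fold. NCAPG was at least 4.61-fold lower when the Cy5 signal was set to 45.8, the lowest called above background on that array, and 2.88-fold lower when set to 73.4, the highest that was not called. On the log2 scale the bounds were -2.20 and -1.52. The first lay below the NCAPD2 ratio of -2.11 ± 0.28 by less than its spot error, and the second lay above it. On the miR-100-3p array the signals were 122 and 59.2 and the ratio was -1.05 ± 0.27. The ratios were -0.89 ± 0.24 with miR-150-3p and -0.45 ± 0.22 with miR-150-5p. In FaDu, the ratio was 0.80 ± 0.28 with miR-99a-3p, from signals of 85.4 and 149, and 0.31 ± 0.32 with miR-99a-5p. The PANC-1 ratios were -0.10 ± 0.24 and -0.02 ± 0.25. With miR-99a-3p in PC3 the size of the NCAPG difference from the other arrays was not measured, since it rests on the dim signal. The NCAPG signals were among the dimmer of the family, and normexp background correction with an offset of 50 brought the ratio to -1.30 with miR-99a-3p and -0.50 with miR-100-3p in PC3, and to 0.44 with miR-99a-3p in FaDu. With the mean mock channel of PC3 as control, on signals corrected by normexp and loess and then scaled between arrays, NCAPG was -1.39 with miR-99a-3p. After normexp correction NCAPD2 at -2.15 and NCAPG2 at -1.63 were lower than NCAPG on that array, so that the order of the lowest subunits depends on the background correction.

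NCAPD2, the other HEAT-repeat subunit of condensin I, was measured by 2 probes at hg19 chr12:6641042-6641101 and chr12:6640598-6640657. The brighter probe gave 7313 in mock PC3 and 1692 after miR-99a-3p, a log2 ratio of -2.11 ± 0.28, and the other gave -1.83 ± 0.26. The probes differed by less than their combined error on all 8 arrays. The ratios were -0.72 ± 0.21 with miR-100-3p, -0.56 ± 0.21 with miR-150-3p and -0.22 ± 0.21 with miR-150-5p. They were 0.66 ± 0.21 in FaDu with miR-99a-3p, 0.30 ± 0.21 with miR-99a-5p, -0.01 ± 0.20 with si-FOXQ1-1 and -0.09 ± 0.20 with si-FOXQ1-2. NCAPD2 was the condensin I subunit with bright signals in both channels throughout.

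NCAPH, the kleisin of condensin I, had 1 probe (hg19 chr2:97041160-97041219) and could not be followed. Its Cy3 signal was 17.4 to 37.5 over the 8 arrays, and its Cy5 signal of 7.47 to 22.4 was not well above background on any array. On 3 arrays, those of miR-99a-3p in PC3 and FaDu and of si-FOXQ1-1, neither channel was above background. The ratios of -1.98 ± 0.75 with miR-150-3p and -2.09 ± 0.77 with si-FOXQ1-2 had bounds of only 1.08 and 1.14-fold lower at the lowest called signal.

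NCAPG2, the condensin II counterpart of NCAPG, had 1 probe (hg19 chr7:158436984-158437043, minus strand). The signal was 720 in mock PC3 and 175 with miR-99a-3p, a log2 ratio of -2.04 ± 0.28, and -1.63 after normexp correction. The ratios of the other PC3 arrays lay close together, at -0.47 ± 0.21 with miR-100-3p, -0.62 ± 0.21 with miR-150-3p and -0.54 ± 0.21 with miR-150-5p. In FaDu they were 0.49 ± 0.21 with miR-99a-3p and 0.13 ± 0.21 with miR-99a-5p, and in PANC-1 0.22 ± 0.21 and -0.003 ± 0.21. NCAPG2 was the only subunit besides NCAPG and NCAPD2 below -2 with miR-99a-3p in PC3, and it did not differ from NCAPD2 there beyond the spot error (gap 0.069, combined error 0.40).

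NCAPD3, the condensin II counterpart of NCAPD2, had 1 probe (hg19 chr11:134022628-134022687, minus strand). It had the smallest reduction with miR-99a-3p in PC3, from 2265 to 1280 with a log2 ratio of -0.82 ± 0.22, and the largest ratio of the family in FaDu, from 1524 to 3667 with a log2 ratio of 1.27 ± 0.23. The ratios were -0.10 ± 0.20 with miR-100-3p, -0.41 ± 0.21 with miR-150-3p, -0.08 ± 0.20 with miR-150-5p and 0.24 ± 0.21 with miR-99a-5p. With the FOXQ1 siRNAs they were 0.31 ± 0.21 and 0.23 ± 0.21.

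NCAPH2, the kleisin of condensin II, had 3 probes. The brightest (hg19 chr22:50961856-50961915) and the second (chr22:50961833-50961892) overlap, and the third (chr22:50958122-50958181) was named for another transcript and was far dimmer. The brightest probe went from 9260 to 4757 with miR-99a-3p in PC3, with a log2 ratio of -0.96 ± 0.22, and the 3 probes ranged from -1.14 to -0.91. The ratios of the brightest probe were -0.23 ± 0.21 with miR-100-3p, -0.49 ± 0.21 with miR-150-3p and 0.001 ± 0.20 with miR-150-5p. The PANC-1 ratios were 0.19 ± 0.20 and -0.001 ± 0.20. In FaDu with miR-99a-3p the probes disagreed in sign, at 0.31 ± 0.21 for the brightest and -0.51 ± 0.23 for the dimmest. They also disagreed beyond their error with miR-150-3p, from -1.05 to -0.49. The direction of NCAPH2 in FaDu is therefore that of its overlapping bright probes.

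SMC2 was measured by 2 probes (hg19 chr9:106903624-106903683 and chr9:106896796-106896855). The brighter went from 503 to 263 with miR-99a-3p in PC3, a log2 ratio of -0.94 ± 0.23, and the dimmer gave -1.41 ± 0.26. With miR-100-3p the brighter gave -0.80 ± 0.22, and the dimmer gave -0.55 ± 0.22. The brighter was -0.53 ± 0.21 with miR-150-3p and -0.07 ± 0.21 with miR-150-5p, whereas the dimmer was -0.26 ± 0.21 and -0.48 ± 0.21, so that the probes order these arrays differently. In FaDu, SMC2 had the largest ratio of the family with miR-99a-5p, at 0.99 ± 0.23, and 1.15 ± 0.23 with miR-99a-3p. The dimmer probe gave 0.24 ± 0.22 with miR-99a-5p and 0.89 ± 0.23 with miR-99a-3p, so that the first value rests on 1 probe. The PANC-1 ratios of the brighter probe were 0.06 ± 0.21 and -0.004 ± 0.21, and the dimmer gave 0.38 ± 0.23 with si-FOXQ1-2. The probes differed beyond their combined error on the arrays of miR-99a-5p, miR-150-5p, si-FOXQ1-2 and, in PC3, miR-99a-3p.

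SMC4, its partner, also had 2 probes (hg19 chr3:160151581-160151640 and chr3:160132206-160132265). With miR-99a-3p in PC3 the brighter went from 3895 to 1758, a log2 ratio of -1.15 ± 0.23, and the dimmer gave -1.09 ± 0.23. In FaDu with miR-99a-3p both probes gave 0.72 ± 0.21. The ratios of the brighter probe were -0.40 ± 0.21 with miR-100-3p, -0.26 ± 0.21 with miR-150-3p, -0.14 ± 0.20 with miR-150-5p, 0.52 ± 0.21 with miR-99a-5p, and 0.25 ± 0.21 and 0.07 ± 0.20 with the FOXQ1 siRNAs. SMC4 probes differed beyond their error on 1 array, that of miR-150-5p, at -0.14 and 0.18.

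**Figure D2:**
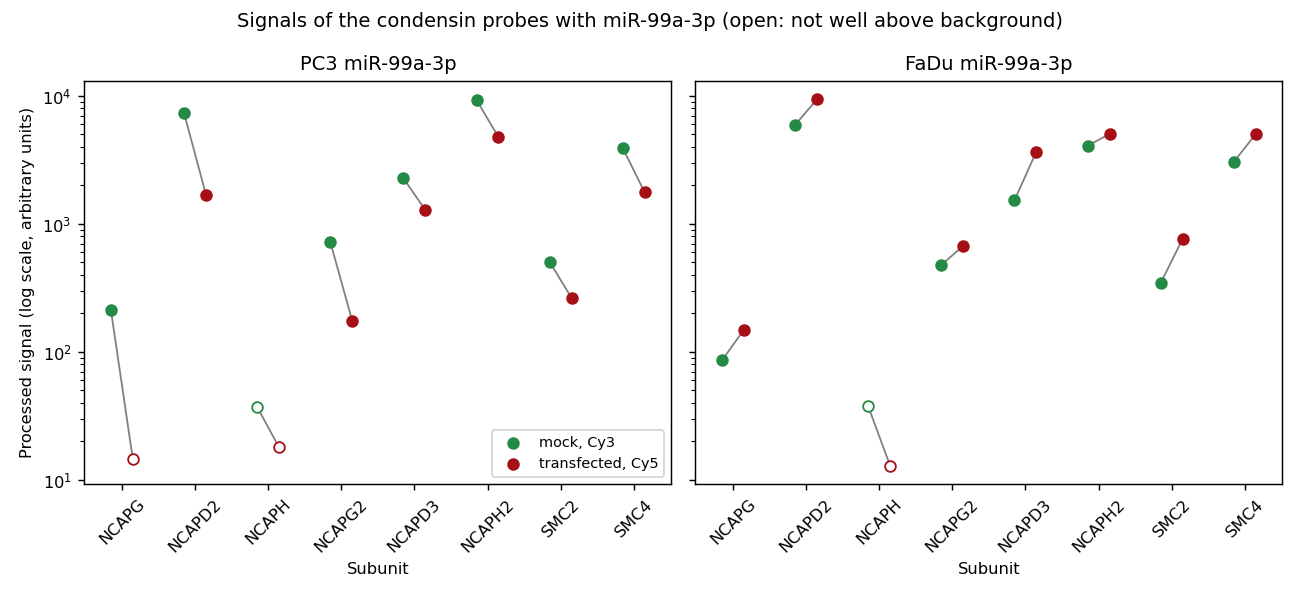
Processed signals on a log scale (vertical axis) are shown for the brightest probe of each subunit (horizontal axis) in mock cells (green, Cy3) and in miR-99a-3p transfected cells (red, Cy5) of PC3 (left) and FaDu (right), with open points where a signal was not well above background. Every Cy5 point lies below its Cy3 point in PC3, with NCAPG at 211 and 14.5, and 7 of 8 lie above it in FaDu, with NCAPD3 at 1524 and 3667.

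Counted over the family, all 7 subunits detected with miR-99a-3p in PC3 were below 0 (median -1.15), as were 10034 of 20545 detected genes. At or below -1 were 4 of 7 subunits and 7.39% of all detected genes. Among probes above background in both channels these were 3 of 6 subunits and 3.99% of genes. No subunit reached 1, which 4.23% of genes did. In condensin I NCAPD2 was below -1 and NCAPG only by its bound, in condensin II 1 of 3 was (NCAPG2), and of the shared pair 1 of 2 (SMC4). NCAPH2, SMC2 and NCAPD3 lay just outside the threshold, at -0.96, -0.94 and -0.82. The dimmer SMC2 probe was at -1.41 and the dimmest NCAPH2 probe at -1.14, whereas the second NCAPH2 probe was at -0.91. The count at or below -1 thus depends on the probe. With its dim Cy5 signal taken at face value, NCAPG stood at the 0.0049 percentile of the 20545 genes detected on that array. It was not the lowest, as the lowest ratio was -4.27. NCAPD2 and NCAPG2 stood at the 1.11 and 1.31 percentiles. The last 4 stood between the 5.69 and 10.4 percentiles.

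With miR-99a-3p in FaDu, 2 of 7 detected subunits were at or above 1, NCAPD3 and SMC2, against 8.25% of detected genes and 7.68% of those above background in both channels. The median was 0.72 and 7 of 7 were above 0, as were 9173 of 19184 detected genes. No subunit was at or below -1, which 9.37% of genes were. The neighbours in the FaDu order, from NCAPH2 at 0.31 to NCAPD3 at 1.27, did not differ beyond the spot error. PC3 minus FaDu ran from -2.77 log2 units for NCAPD2 to -1.27 for NCAPH2 among subunits measured in both channels, 4.19 to 7.85 times the combined spot error. With 1 array per line no test of this difference could be made.

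miR-99a-3p and miR-100-3p were set side by side in PC3, where they were counted as sharing a mock sample. All 8 subunits were below 0 with miR-100-3p (median -0.56), as were 10662 of 20273 detected genes, although the dim NCAPH was 0.01 after normexp correction. Only 1 subunit, NCAPG, was at or below -1, against 3.34% of detected genes and 0.334% of those above background in both channels. No subunit reached 1 (0.987% of genes). The ratio with miR-99a-3p was below that with miR-100-3p for all 8, although NCAPH was dim on both arrays. The miR-99a-3p ratio minus the miR-100-3p ratio was -1.58 for NCAPG2 and -1.39 for NCAPD2, 4.47 and 3.93 times the combined spot error. For SMC4, NCAPH2 and NCAPD3 it was -0.75, -0.73 and -0.72, or 2.42, 2.43 and 2.41 times the error. For SMC2 the brighter probe gave -0.14, within its combined error of 0.32, and the dimmer gave -0.86, beyond its error of 0.34.

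With miR-150-3p in PC3, 8 of 8 subunits were also below 0 (median -0.55), as were 10756 of 20815 detected genes. NCAPH alone was at or below -1, with a dim Cy5 signal, against 6.68% of detected genes. Above background in both channels it was 0 of 7 subunits and 2.28% of genes, and no subunit reached 1 (2.69%). With miR-150-5p, whose array was counted with the same mock sample, 6 of 8 were below 0 (median -0.11), as were 10643 of 20919 detected genes. No subunit was at or below -1 (4.49% of genes) or at or above 1 (0.664%). The miR-150-3p ratio minus the miR-150-5p ratio was -0.49 (NCAPH2) to -0.079 (NCAPG2) among subunits measured in both channels, at most 1.69 times the combined spot error.

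With miR-99a-5p in FaDu the median was 0.29 and 7 of 8 were above 0, as were 8795 of 19282 detected genes. No subunit was at or below -1 (4.86% of genes) and none reached 1 (0.851%), with SMC2 just below it at 0.99. The FOXQ1 siRNAs gave medians of 0.19 and -0.004. With si-FOXQ1-1 none passed 1 in either direction (3.31% of genes lower, 0.905% higher). With si-FOXQ1-2 NCAPH alone was at or below -1, with a dim Cy5 signal (3.29% of genes), and none reached 1 (0.412%). The siRNA values of the 7 measured subunits differed by less than their combined spot error.

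The mock channels gave the levels of the subunits before transfection. Levels were compared between lines within a probe, on quantile-normalized log2 Cy3 signals. NCAPG was highest in PC3, with 4 channel values from 6.995 to 7.37, next in PANC-1 at 6.63 and 6.86, and lowest in FaDu at 6.06 and 6.06. PC3 did not overlap with the other lines. PC3 minus FaDu was 1.12 (SE 0.18, limma with Benjamini-Hochberg adjustment over 21496 genes, adjusted p = 0.016), a 2.17-fold difference, and it was 0.58 with normexp correction. NCAPH2 was 12.6 to 12.8 in PC3, 12.6 in PANC-1 and 11.6 to 11.7 in FaDu. PC3 minus FaDu was 1.08 (SE 0.15, adjusted p = 0.012 by limma) and FaDu minus PANC-1 was -0.97 (SE 0.18, adjusted p = 0.024 by limma). NCAPD3 was 10.6 to 10.8 in PC3 and 10.2 to 10.3 in FaDu, a difference of 0.50 (SE 0.13, adjusted p = 0.048 by limma). SMC2 was 7.95 and 8.11 in FaDu and 8.89 and 8.93 in PANC-1, and FaDu minus PANC-1 was -0.88 (SE 0.19, adjusted p = 0.036 by limma).

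Of 7 subunits tested, 3 were thus called higher in PC3 than in FaDu, against 30.1% of genes called higher and 60.6% called in either direction. None of 7 was called between PC3 and PANC-1, where 48.1% of genes were, at unadjusted p between 0.093 for NCAPG and 0.83 for SMC4. Between FaDu and PANC-1, 2 of 7 were called lower in FaDu, against 26.4% lower and 51.1% in either direction. NCAPD2, NCAPG2 and SMC4 passed in no contrast, with differences of 0.30 or less in size, and NCAPH was too dim to be tested. The calls rest on 2 PC3, 1 FaDu and 1 PANC-1 mock samples, with 1 residual degree of freedom, and the single samples are assumed to vary like those of PC3. The labels do not say whether mock samples were separate cultures, so that p-values measure the spread between these samples, which may be technical. The NCAPH2 and SMC2 calls were those of the bright probes: with the dimmest probe of each gene, NCAPH2 was -0.16 for PC3 minus FaDu and 0.56 for FaDu minus PANC-1, and SMC2 was 0.25 for FaDu minus PANC-1. NCAPD3 lost its call under 7 of 13 alternatives, with adjusted p of up to 0.082.

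**Figure D3:**
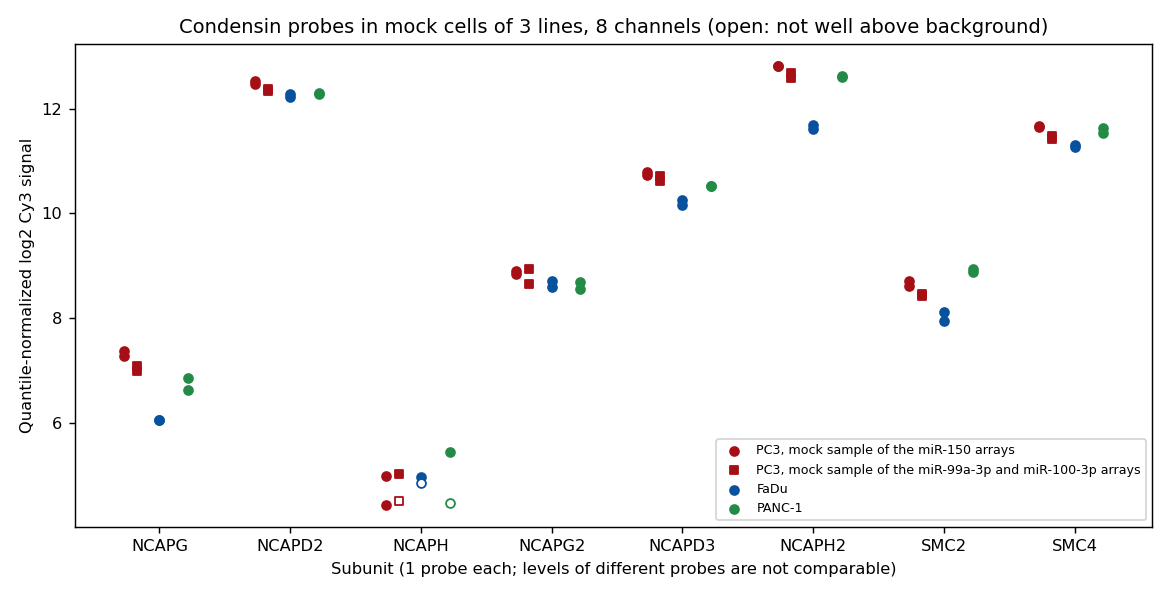
Quantile-normalized log2 Cy3 signals (vertical axis) of the brightest probe of each subunit (horizontal axis) are shown for the 8 mock channels, coloured by cell line, with circles and squares for the 2 PC3 mock samples and open points where a signal was not well above background. NCAPG and NCAPH2 sit lowest in FaDu, at 6.06 and at 11.6 to 11.7, and the channels of a mock sample lie close together except for the dim NCAPH.

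The PC3 mock samples also differed slightly. All 7 measured subunits were higher in the mock sample of the miR-150 arrays than in that of the miR-99a-3p and miR-100-3p arrays, by 0.063 for NCAPG2 to 0.28 for NCAPG, where the median absolute difference of all tested genes was 0.15. When the mean mock channel of PC3 replaced the array's own, a setting that also takes normexp, loess and scaling between arrays, the median of the subunits was -1.25 for PC3 miR-99a-3p, -0.53 for PC3 miR-100-3p, -0.41 for PC3 miR-150-3p and -0.083 for PC3 miR-150-5p.

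Proteins that work with condensin on mitotic chromosomes were described as a list of 23 genes. It holds topoisomerase II (TOP2A, TOP2B), the chromosome kinesins KIF4A and KIF22, the chromosomal passenger proteins AURKB, INCENP, BIRC5 and CDCA8, the mitotic kinases CDK1, PLK1, VRK1 and GSG2 (now HASPIN), the cyclins CCNB1 and CCNB2, MCPH1, which holds condensin II back in interphase, and others. With miR-99a-3p in PC3 its median was -1.85, with 16 of 23 at or below -1, against 7.39% of all detected genes. Above background in both channels these were 15 of 21 and 3.99% of genes. Below 0 were 10034 of 20545 detected genes and 20 of 23 of the list. None of the list was at or above 1 (4.23% of genes). The lowest measured in both channels were CDK1 at -3.03, TOP2A at -2.43 and BIRC5 at -2.41, and the highest AKAP8 at 0.33, CSNK2A1 at 0.20 and TOP2B at 0.04. CSNK2A1 was -0.12 there as the mean over its probes and -0.44 with the least bright one, so that its sign rests on 1 probe. CDK1 is the main mitotic kinase and phosphorylates condensin, whereas TOP2B is the isoform also made by non-dividing cells. CDK1 and MKI67 of the list are among the paper's putative targets of miR-99a-3p, chosen in part by their ratios on this array. KIF4A, which recruits condensin I to chromosome arms, was at -2.18, and MCPH1 was dim after transfection.

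With miR-99a-3p in FaDu the median of the list was 0.79, with 4 of 23 at or above 1, against 8.25% of detected genes. Above 0 were 9173 of 19184 detected genes and 20 of 23 of the list. AURKB at 1.55, TOP2A at 1.48 and BIRC5 at 1.21 were the highest, and PHF8 at -0.59, CSNK2A1 at -0.14 and PPP2R1A at -0.06 the lowest. CDK1 was 0.86, KIF4A 0.80 and MCPH1 0.37, with MCPH1 at -0.31 by its least bright probe. With miR-99a-5p in FaDu the median was 0.31, with MKI67 at 0.62, PLK1 at 0.61 and INCENP at 0.60 highest and PHF8 at -0.11, PPP2R1A at -0.10 and AKAP8 at -0.005 lowest. There TOP2A was 0.46, CDK1 0.37, KIF4A 0.18 and MCPH1 0.007, with MCPH1 at -0.35 by its least bright probe. MKI67 coats mitotic chromosomes and is a common marker of dividing cells.

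With miR-150-3p in PC3 the median was -0.57 and 5 of 23 were at or below -1, against 6.68% of detected genes. Above background in both channels these were 4 of 22 and 2.28% of genes. AURKB at -1.25, TOP2A at -1.18 and GSG2 at -1.09 were lowest, CDK1 was -1.01 and KIF4A -0.93, MCPH1 was dim, and TOP2B at 0.21, CSNK2A1 at 0.08 and AKAP8 at -0.03 were highest. CSNK2A1 turned to -0.31 as the mean over its probes and to -0.71 with the least bright one. With miR-100-3p the median was -0.35 and none passed 1 in either direction (3.34% of genes lower, 0.987% higher). CDK1 at -0.92, NUSAP1 at -0.91 and MKI67 at -0.76 were lowest, KIF4A was -0.71, TOP2A -0.44 and MCPH1 -0.04, and CSNK2A1 at 0.35, GSG2 at 0.25 and TOP2B at 0.14 were highest, with GSG2 at -0.067 against the mean mock channel. With miR-150-5p the median was -0.17, with KIF4A at -0.83, BIRC5 at -0.43 and CCNB2 at -0.42 lowest and MCPH1 at 0.52, AKAP8 at 0.16 and CSNK2A1 at 0.16 highest. CDK1 was -0.39 and TOP2A -0.30 on that array. With the least bright probes CSNK2A1 was -0.26 and CDK1 0.07 there.

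In PANC-1 the medians of the list were 0.13 with si-FOXQ1-1 and -0.01 with si-FOXQ1-2. GSG2 at 0.72, MKI67 at 0.50 and CDCA2 at 0.46 were highest with si-FOXQ1-1, and PPP2R1A at -0.13, MCPH1 at -0.04 and NUSAP1 at -0.03 lowest, while TOP2A was 0.30, KIF4A 0.13 and CDK1 -0.01. With si-FOXQ1-2, VRK1 at 0.32, MCPH1 at 0.25 and CDCA2 at 0.20 were highest and PHF8 at -0.45, KIF4A at -0.30 and SETD8 (now KMT5A) at -0.28 lowest, with TOP2A at 0.18 and CDK1 at -0.01. KIF4A was 0.0017 there with its least bright probe. The median of all detected genes lay between -0.035 and 0.015 on the 8 arrays.

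The other SMC complexes, cohesin and the SMC5/6 complex, were listed with 11 genes. Their median with miR-99a-3p was -0.61 in PC3 and 0.16 in FaDu, beside -1.15 and 0.72 for condensin. SMC1A, a cohesin ATPase, was lowest in PC3 at -1.20 and NSMCE2, a SUMO ligase of the SMC5/6 complex, highest at 0.18 among those measured in both channels. In FaDu with miR-99a-3p the lowest was the cohesin subunit STAG2 at -0.43 and the highest NSMCE4A, of the SMC5/6 complex, at 1.02, with STAG2 at 0.20 by its least bright probe. On the other arrays the medians were -0.04 with miR-99a-5p, -0.12 with miR-150-5p, -0.20 with miR-150-3p, -0.24 with miR-100-3p, -0.09 with si-FOXQ1-1 and 0.01 with si-FOXQ1-2. The lowest and highest members measured in both channels were NDNL2 (now NSMCE3) at -0.33 and STAG1 at 1.10 with miR-99a-5p, SMC3 at -0.74 and STAG1 at 0.37 with miR-150-5p, and NSMCE2 at -0.67 and NSMCE4A at 0.13 with miR-150-3p. They were SMC1A at -0.71 and SMC6 at 0.01 with miR-100-3p, STAG1 at -0.77 and SMC1A at 0.38 (-0.19 by its least bright probe) with si-FOXQ1-1, and NSMCE1 at -0.31 and RAD21 at 0.16 with si-FOXQ1-2.

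**Figure D4:**
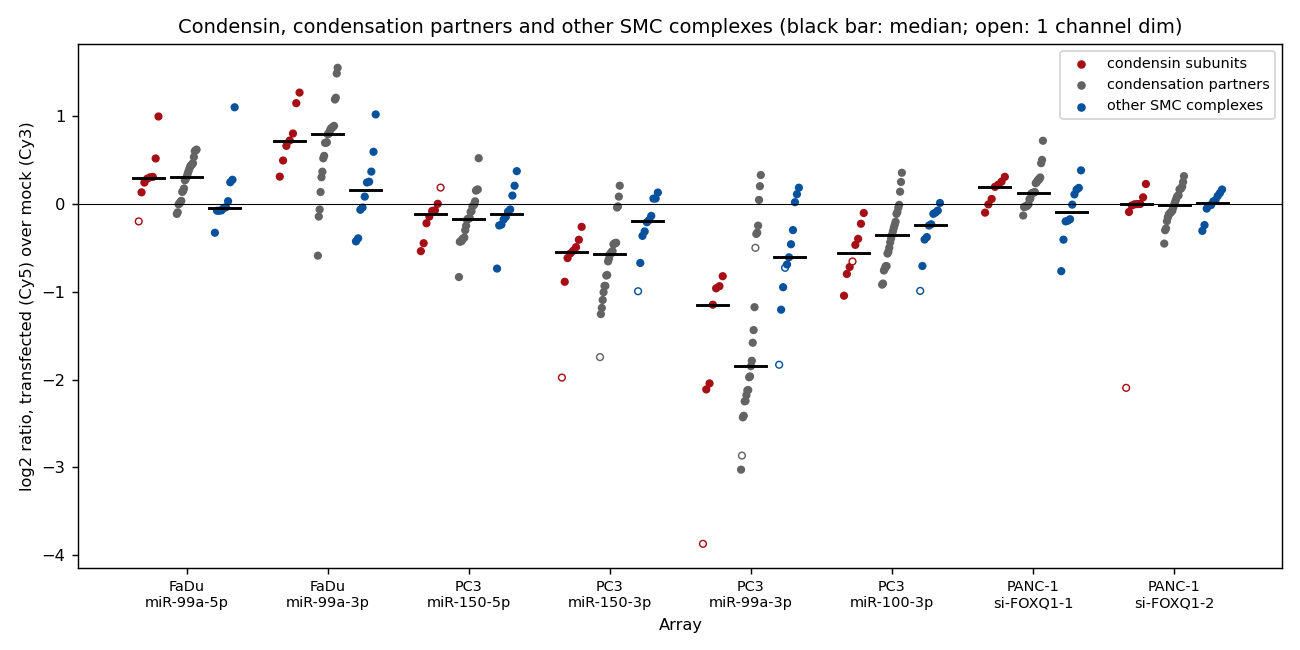
Log2 ratios of Cy5 over Cy3 (vertical axis) are shown on each array (horizontal axis) for the condensin subunits (red), 23 condensation partners (grey) and 11 genes of other SMC complexes (blue), leaving out probes dim in both channels, with open points for genes dim in 1 channel and a black bar at the median. With miR-99a-3p the medians are -1.15, -1.85 and -0.61 in PC3, and 0.72, 0.79 and 0.16 in FaDu.

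The genes whose ratios over the 8 arrays were most like those of a subunit were found by the root mean square difference, over 14184 genes above background in both channels on at least 7 arrays. For NCAPG they were PLK4 (0.30), CDK1 (0.31) and DTL (0.31), distances that include its dim value with miR-99a-3p in PC3. Over the other 7 arrays, an alternative chosen after seeing the data, its nearest genes were NUSAP1 (0.067), CDK1 (0.083) and DNA2 (0.17), and PLK4 and DTL stood at ranks 63 and 170. For NCAPD2 they were TPX2 (0.12), a transcript that the array names by its Ensembl identifier alone (0.13) and CCNB2 (0.14). For NCAPG2 they were NDC80 (0.12), CDC20 (0.14) and MCM6 (0.15). For SMC4 they were XRCC6 (0.14), PLK1 (0.15) and H2AFZ (0.15), and for SMC2 PIF1 (0.25), DUT (0.26) and WHSC1 (0.26). For NCAPD3 they were GEMIN6 (0.098), SAC3D1 (0.13) and SRSF7 (0.14), and for NCAPH2 NCL (0.097), FANCM (0.11) and TIPIN (0.12). No other subunit was among the 3 nearest genes of any. The nearest other subunit stood at rank 11 for SMC2, 13 for NCAPG2, 24 for NCAPD2, 33 for SMC4, 80 for NCAPG, 157 for NCAPD3 and 170 for NCAPH2. The distances from NCAPD2 to TPX2 (0.12) and to NCAPG2 (0.19) were both below the spot errors of its single ratios (0.20 to 0.28). Ranks at such distances may therefore not be told apart. Arrays that share a mock sample enter these distances as separate points.

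Promoters are shown because the subunits were lower together with miR-99a-3p in PC3. Mitotic genes often carry a cell cycle genes homology region (CHR), bound by the DREAM and MuvB complexes, and CCAAT boxes, bound by NF-Y. Windows of 250 bases before to 50 bases after the start were taken from RefSeq on GRCh38.p14, with 10 windows for 7 of the subunit genes. The letters TTTGAA or TTCGAA were searched on both strands as CHR matches and CCAAT on both strands. A CHR match was found for 6 of 7 genes, NCAPG, NCAPD2, NCAPG2, NCAPD3, SMC2 and SMC4, in 6 of 10 windows, and in 16.4% of 35116 windows or 19.5% of 27305 genes overall. A CCAAT match was found for 3 of 7 genes, NCAPD2, NCAPH and NCAPD3, against 39.7% of genes. The windows of NCAPG, the subunit with the lowest ratio at face value, NCAPD2, the brightest of those below -2, and NCAPD3, with the mildest reduction, are printed from 250 bases before to 30 bases after the start, with CHR and CCAAT matches in capitals. They are NCAPG at chr4:17810729-17811008 on the plus strand, NCAPD2 at chr12:6493852-6494131 on the plus strand, and NCAPD3 at chr11:134223938-134224217 on the minus strand.
NCAPG: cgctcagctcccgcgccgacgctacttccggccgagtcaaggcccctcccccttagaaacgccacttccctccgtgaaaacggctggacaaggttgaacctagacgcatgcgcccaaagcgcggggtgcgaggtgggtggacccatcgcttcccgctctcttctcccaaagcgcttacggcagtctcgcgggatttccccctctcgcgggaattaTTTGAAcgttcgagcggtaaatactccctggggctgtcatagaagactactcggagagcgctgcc
NCAPD2: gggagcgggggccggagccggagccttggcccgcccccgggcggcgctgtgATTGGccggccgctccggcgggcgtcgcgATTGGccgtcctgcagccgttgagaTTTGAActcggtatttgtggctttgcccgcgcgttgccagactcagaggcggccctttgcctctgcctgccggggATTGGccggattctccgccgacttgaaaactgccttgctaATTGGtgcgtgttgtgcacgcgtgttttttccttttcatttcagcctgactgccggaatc
NCAPD3: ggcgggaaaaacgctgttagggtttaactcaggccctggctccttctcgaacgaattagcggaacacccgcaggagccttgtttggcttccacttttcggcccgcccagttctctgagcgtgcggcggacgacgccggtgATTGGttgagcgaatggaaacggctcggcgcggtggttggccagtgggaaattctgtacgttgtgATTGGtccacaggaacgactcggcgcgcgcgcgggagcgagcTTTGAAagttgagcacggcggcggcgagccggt
NCAPG held 1 CHR match, beginning 35 bases before the start, and no CCAAT. NCAPD2 held 1 CHR match, beginning 145 bases before the start, and 4 CCAAT matches on the minus strand. The CHR match of NCAPG2, whose window is not printed, began at base 36 after the start. NCAPD3 held 2 CCAAT matches on the minus strand and a CHR match across the start, although its ratio was the mildest. The promoters with a CHR match thus include both the lowest and the mildest ratio of the family, and a match is a description of letters, not of a bound site.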

How the data were processed

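The data are 8 Agilent arrays of 2 colours, all on 1 slide. Per the file headers the authors scanned and processed them with Agilent Feature Extraction 10.7.3.1, with probes annotated on hg19. The deposited intensity values are background-subtracted and dye-normalized signals, with mean and background intensities beside them. Deposited beside them are log10 ratios (Cy5 over Cy3) with their errors, from the same run, and the authors' log10 series table was equal to them (largest difference 0). Ratios and errors were multiplied onto the log2 scale. Left out were control spots and outlier-flagged spots (81 to 178 per array), a gene was its brightest probe over 8 arrays, and a gene counted as detected if either channel was called well above background. The number of arrays limits the precision, and ratios of single arrays were not tested.

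Mock Cy3 signals were quantile-normalized, averaged within pairs of arrays that agreed within spot noise, and compared between lines with limma 3.58.1 in R 4.3.3 (lmFit, eBayes, Benjamini-Hochberg at 0.05). The fit first planned took the 8 channels as separate samples and is kept as an alternative. On data simulated for PC3 minus FaDu over 21496 genes, the fit called 44% of differences of 1 log2 unit and 100% of those of 2, with 5.88% false calls. The simulation gave all genes the same SD and changed 200 of them, whereas the real fit called 60.6% of genes. Its rates therefore need not hold for the real fit. Loess was tested on simulated data too. Other settings were normexp with an offset of 50 and loess, the mean mock channel of the line as control (with normexp, loess and Aquantile scaling between arrays), and another filter, threshold or probe. Python 3.11.15 did the rest.

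The members, the lists of 23 condensation partners and 11 genes of other SMC complexes, the line markers and the tests were chosen with earlier results of these data known. Named genes are the members, FOXQ1, the 3 lowest and 3 highest partners per array measured in both channels with TOP2A, KIF4A, MCPH1 and CDK1, the lowest and highest of the other SMC genes, and the 3 genes nearest to each member. Groups came from the sample labels. Some line markers are not reported here. Correlations between arrays over all probes were -0.01 to 0.22, and the dye orientation was taken from the labels.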

Additional observations from a re-analysis of the deposited data

Results flagged for a closer look

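With miR-99a-3p, 7 condensin subunits had log2 ratios of opposite sign in PC3 and in FaDu, each line with 1 array, and the difference between lines was not tested. The log2 ratios were -3.87 in PC3 and 0.80 in FaDu for NCAPG, whose PC3 signal after transfection was not well above background. They were -2.11 and 0.66 for NCAPD2, -2.04 and 0.49 for NCAPG2, and -0.82 and 1.27 for NCAPD3. For NCAPH2 they were -0.96 and 0.31, although its dimmest probe was below 0 in both lines (-1.14 and -0.51). For SMC2 they were -0.94 and 1.15, and for SMC4 -1.15 and 0.72. The mock samples of the lines also differed for NCAPG, NCAPH2 and NCAPD3, and their part in the difference was not tested. No PC3 mock channel stood far from the other 3 for any of the 8 subunits. As the PC3 channels came in pairs, this check of single channels could not show a deviating mock sample.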

How the results depend on the processing

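No paired analysis was possible because no condition was arrayed more than once and no replicate numbers are given. The value table of the series and the kept outlier spots changed no member's ratio. Of 384 member ratios recomputed, 347 moved by less than the spot error, and none of those at or past 1 turned its sign. These totals include both settings that changed nothing, and the probe settings could not change subunits with 1 probe. With normexp and loess 10 moved beyond the spot error and 54 did not. The numbers were 11 and 53 with the mean mock channel, 3 and 61 with the mean over probes, and 13 and 51 with the least bright probes. The median of the subunits moved beyond the spot error in 1 of 64 cases, which also include the settings that changed nothing. It moved to -1.41 for PC3 miR-99a-3p with the least bright probes, and the median of the partners there was -1.53 with normexp and loess.

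With normexp and loess, 1 subunit reached 1 with miR-99a-3p in FaDu, as with the least bright probes, and 0 were at or below -1 with miR-150-3p, miR-100-3p and si-FOXQ1-2, where the mean mock channel, which takes normexp and loess as well, gave 0 too. Both channels above background left 0 with miR-150-3p and si-FOXQ1-2, the least bright probes gave 2 with miR-150-3p, and no filter gave 1 lower in FaDu with miR-99a-3p (NCAPH, dim in both channels). With the least bright probes SMC2 at -1.41 and NCAPH2 at -1.14 also passed -1 with miR-99a-3p in PC3. At 0.58 log2 units, 7 subunits were lower with miR-99a-3p, 4 with miR-100-3p and 3 with miR-150-3p in PC3, and 5 higher with miR-99a-3p and 1 with miR-99a-5p in FaDu. At 2 log2 units, 3 stayed lower with miR-99a-3p in PC3, 0 with miR-100-3p or miR-150-3p, and 0 were higher in FaDu. The 3 include NCAPG, whose dim Cy5 signal was taken at face value. Shares of all genes were not computed at 0.58 or 2 log2 units, so these counts have no comparison. Of the partners, 1 was at or below -1 with miR-150-3p after normexp and loess, and 1 at or above 1 with miR-99a-5p when probes were averaged.

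In the mock fit, counting each channel separately, as first planned, called 6 subunits for PC3 minus FaDu, 3 for PC3 minus PANC-1 and 5 for FaDu minus PANC-1. The averaging of pairs used in the report was chosen after seeing the data. For this fit and the alternatives below, the share of all genes called was not taken, so their counts have no comparison. With no filter on dim probes 0 were called for PC3 minus FaDu and 0 for FaDu minus PANC-1. The least bright probes gave 1 call for PC3 minus PANC-1 and 0 for FaDu minus PANC-1. Leaving out 1 channel at a time gave 2 to 3 calls for PC3 minus FaDu, 0 to 0 for PC3 minus PANC-1 and 2 to 2 for FaDu minus PANC-1, and a lone channel is assumed to vary like the others. NCAPD3 lost its PC3 minus FaDu call without the mock channel of FaDu miR-99a-5p (adjusted p = 0.059 by limma), PC3 miR-150-5p (0.057), PC3 miR-150-3p (0.056) or PC3 miR-100-3p (0.068).

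Differences that turned sign with the least bright probes were, for PC3 minus FaDu, NCAPD2 (-0.057) and NCAPH2 (-0.16), for PC3 minus PANC-1, SMC2 (0.89) and SMC4 (0.31), and for FaDu minus PANC-1, NCAPD2 (0.25), NCAPG2 (-0.000199), NCAPH2 (0.56), SMC2 (0.25) and SMC4 (0.0055). With scaling to the 75th percentile they were NCAPD2 (-0.018) and NCAPH2 (-0.053) for PC3 minus PANC-1 and NCAPG2 (-0.0094) for FaDu minus PANC-1. Leaving out 1 channel, SMC4 ranged from -0.086 to 0.0092 for PC3 minus PANC-1 (above 0 without PANC-1 si-FOXQ1-2), and NCAPG2 from -0.042 to 0.085 for FaDu minus PANC-1 (below 0 without FaDu miR-99a-5p or PANC-1 si-FOXQ1-1). The causes were not tested. Signal over background limits NCAPG and NCAPH most.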
